A study of Homo sapiens with 3 samples.

Results

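The transcripts described here are those of 10 genes of the NF-kB system: the subunits RELA, RELB, REL, NFKB1 and NFKB2, the inhibitors NFKBIA and NFKBIE, the kinase MAP3K14 and the feedback genes TNFAIP3 and BIRC3. They were chosen by name and matched by symbol to the Ensembl identifiers of the deposited count table. Of the 10 genes, 9 had a row among the 22827 of the table, and MAP3K14, the kinase NIK, had none and was not analysed here. All 9 passed the count filter, which asks for 10 counts in any 1 library. The cells are labelled as Hep3B, a human liver cancer line, and were sequenced as 3 libraries: 1 of cells labelled SIRT7-KO, 1 of cells labelled USP39-KO and 1 labelled control. SIRT7 is a nuclear NAD-dependent deacylase and USP39 is a ubiquitin protease homologue of the spliceosome. No treatment, time or other shared alteration is labelled, and the sources used here do not say whether each knockout was 1 clone or a pool. Each condition is 1 library, so no difference below has a replicate check, no test was made, and every interval is an exact 95% interval that covers counting error only.

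NF-kB is a family of dimeric transcription factors that switches on genes of inflammation, cell survival and its own restraint. In the canonical arm, RELA or REL pairs mostly with p50, the product of NFKB1, and IkB proteins such as those of NFKBIA and NFKBIE hold the dimer in the cytoplasm until the IKK kinase marks them for destruction. In the non-canonical arm, NIK drives the processing of the NFKB2 product p100 to p52, which acts with RELB. Several of these genes are themselves NF-kB targets, among them NFKBIA, TNFAIP3, BIRC3, NFKB2 and RELB, which gives the pathway its feedback. In liver the pathway is known for guarding hepatocytes against death induced by tumour necrosis factor.

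Because the genes are known for this self-regulation, their promoters were read for the kappa B element, the DNA site that NF-kB binds. RefSeq sequences (GRCh38.p14) were at hand for 7 of the 9 genes, in 11 windows of 250 bases ending just before a transcript start. RELB and NFKBIE were not among them. The kappa B consensus, a motif of 10 letters searched on both strands, matched in 7 of the 11 windows and in 6 of the 7 genes, all but RELA. Of all 35116 windows of this length in the RefSeq table, 9.96% held a match. A narrower motif, GGG and TTTCC with any 2 letters between, whose matches mostly overlap those of the consensus, was also in 7 of the 11 windows, against 1.73% of all windows, while a loose motif, GGG and CC with any 5 letters between, was in 10 of 11, against 54.4%. A match is a description of letters and does not show that the factor was bound. Windows of 4 genes are shown because they hold both feedback genes, the subunit NFKB1 and the inhibitor NFKBIA, whose levels differed to unequal degrees. Each ends no more than 30 bases inside the gene as GENCODE 29 places it, and capitals mark the kappa B consensus on either strand. The windows shown are chr11:102317234-102317479, plus strand, for BIRC3, chr6:137867009-137867217, plus strand, for TNFAIP3, chr4:102501109-102501358, plus strand, for the first of 2 listed starts of NFKB1, and chr14:35404750-35404999, minus strand, for NFKBIA.
BIRC3: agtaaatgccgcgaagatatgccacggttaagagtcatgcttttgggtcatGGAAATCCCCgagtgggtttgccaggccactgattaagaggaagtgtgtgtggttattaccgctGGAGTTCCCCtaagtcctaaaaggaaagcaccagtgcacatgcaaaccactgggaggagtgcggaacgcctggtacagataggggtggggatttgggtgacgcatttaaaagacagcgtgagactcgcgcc
TNFAIP3: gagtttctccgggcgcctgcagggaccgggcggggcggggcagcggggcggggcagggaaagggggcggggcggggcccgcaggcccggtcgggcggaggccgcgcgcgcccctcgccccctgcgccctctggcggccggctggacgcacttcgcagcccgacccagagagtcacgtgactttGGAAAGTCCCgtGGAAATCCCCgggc
NFKB1: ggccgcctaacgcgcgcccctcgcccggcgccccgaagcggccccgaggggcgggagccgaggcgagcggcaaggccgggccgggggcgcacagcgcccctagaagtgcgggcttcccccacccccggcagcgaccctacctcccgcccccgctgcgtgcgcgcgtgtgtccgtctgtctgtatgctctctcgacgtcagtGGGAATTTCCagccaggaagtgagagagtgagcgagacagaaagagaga
NFKBIA: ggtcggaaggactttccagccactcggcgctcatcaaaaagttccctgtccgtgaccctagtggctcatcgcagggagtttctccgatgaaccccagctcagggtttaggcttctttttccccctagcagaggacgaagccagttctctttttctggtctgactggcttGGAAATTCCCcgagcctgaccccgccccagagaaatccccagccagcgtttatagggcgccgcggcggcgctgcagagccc
BIRC3 and TNFAIP3 each hold 2 separate matches, and NFKB1 and NFKBIA 1 each.

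Some of the matches were the same letters in several genes, as read after the matches were known. GGGAATTTCC, on one strand or the other, was in windows of NFKB1, REL and NFKBIA and in 50 of all 35116 windows. GGGGATTTCC was in those of BIRC3 and TNFAIP3 and in 38 of all windows. GGGACTTTCC was in those of TNFAIP3 and of NFKB2, in the last of its 3 listed starts, and in 63 of all windows. All 6 of these genes were below control in SIRT7-KO, REL within counting error, as the values below show. So were all 9 measured genes, among them RELA, which had no match and was also within counting error. RELB and NFKBIE had no window to read. Whether the shared letters set these genes apart was therefore not tested. In USP39-KO NFKB1, TNFAIP3 and, within counting error, NFKBIA were above control and REL, NFKB2 and BIRC3 below it.

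Library totals were 16151522 counts in SIRT7-KO, 16630636 in USP39-KO and 19427940 in control. The targeted genes were each lowest in the library named for them. SIRT7 had 608 reads in SIRT7-KO, 808 in USP39-KO and 984 in control, a log2 ratio of -0.44 for SIRT7-KO over control. USP39 had 1511, 1066 and 1829 reads in the same libraries, a log2 ratio of -0.54 for USP39-KO over control. Neither reached a 2-fold difference, and a gene's total reads show neither the edited site nor the protein. The liver label was checked against 13 hepatocyte markers: 6, including ALB, AFP and APOB, had no read in any library, 10 had under 10 reads in each, and CPS1 was abundant at 1371.2 CPM in SIRT7-KO, 1346.6 CPM in USP39-KO and 1369.5 CPM in control (CPM, counts scaled to library size). Apart from CPS1, these markers thus gave little to bear out the liver label, and why was not tested. The other 12 hepatocyte markers summed to 1.41 CPM in SIRT7-KO, 2.92 CPM in USP39-KO and 6.90 CPM in control. Most of it was HNF4A in USP39-KO and control, and HNF4A had 7, 29 and 113 reads over the libraries. This order over the libraries is that of RELB and BIRC3 below, and its part in those results was not tested. Immune cells use NF-kB heavily, and of 16 immune markers 9 had no read anywhere, among them the pan-leukocyte gene PTPRC. AIF1, also of the 9, lies in the major histocompatibility complex. Most genes there had no read, as given below, so its 0 is no sign that it was silent. The 16 together held 7.60 CPM in SIRT7-KO, 7.90 CPM in USP39-KO and 6.43 CPM in control. The 7 endothelial markers summed to between 1.15 and 1.72 CPM per library. The 8 fibroblast and stellate markers summed to 116.9 CPM in SIRT7-KO, 140.8 CPM in USP39-KO and 119.3 CPM in control, most of it COL1A1, and the part of such differences in the results below was not tested.

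In SIRT7-KO all 9 measured genes were below their control level, from RELB, at 0.224 times control, to REL, at 0.981 times. Of all 12726 genes compared, 51.2% were below control. The interval lay wholly below 0 on the log2 scale for 7 of the 9 genes, against 28.8% of all genes, and wholly above 0 for none, against 27.3% of all genes. An interval narrows with more reads. The 9 genes had at least 110 reads in every library, while the filter admits genes with 10 counts in any 1 library. Such shares of intervals, here and below, therefore compare genes of unlike depth. A gene is called here when it differs at least 2-fold with an interval that excludes no difference. By that rule RELB and BIRC3 were lower, 2 of the 9, where 4.05% of all genes were called lower, and none was higher, where 3.02% of all genes were. In USP39-KO no member was called in either direction, where 3.37% of all genes were called lower and 1.49% higher. There 6 of the 9 intervals lay wholly below 0, against 22.5% of all genes, and wholly above 0 for 2, NFKB1 and TNFAIP3, against 22.0%. The median log2 ratio of the 9 genes was -0.53 for SIRT7-KO over control and -0.19 for USP39-KO over control, and that of all genes -0.01 and 0.00. Both comparisons use the same control library, so a low or high control value would enter both.

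**Figure D1:**
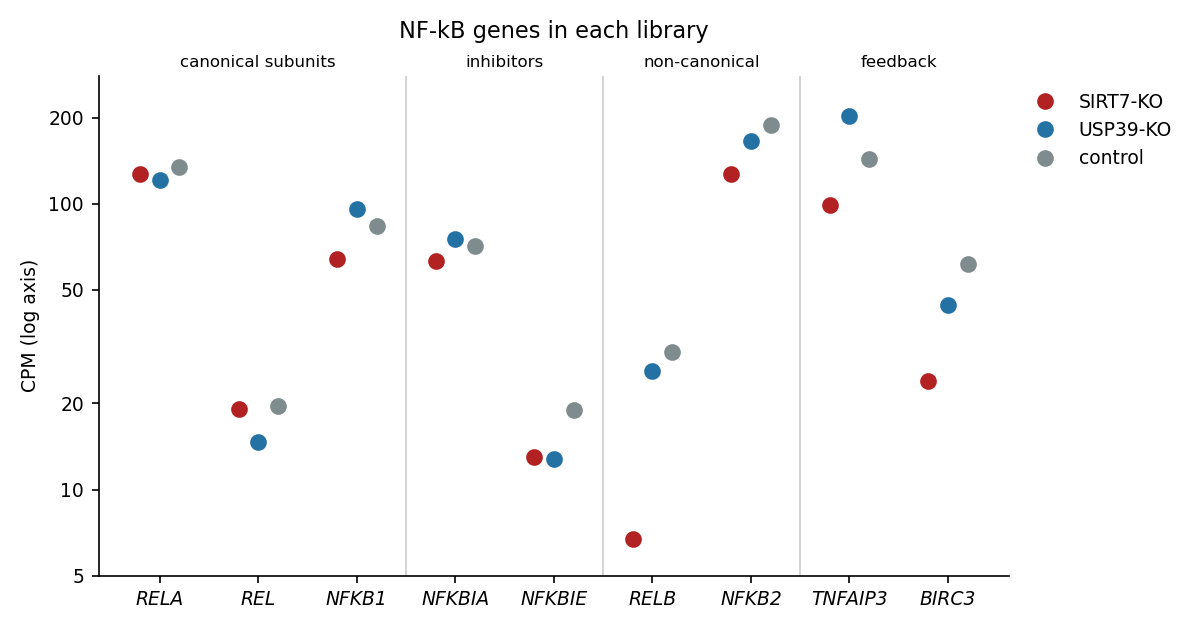
CPM of the 9 measured genes (log axis) in the SIRT7-KO (red), USP39-KO (blue) and control (grey) libraries, 1 point per library. RELB, BIRC3 and TNFAIP3 spread most, with RELB at 6.74 CPM in SIRT7-KO, 25.9 CPM in USP39-KO and 30.2 CPM in control, while RELA lay between 120.5 and 134.4 CPM.

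Among the canonical subunits, RELA and REL were the 2 members closest to control in SIRT7-KO. RELA, which carries the main activation domain of canonical NF-kB (ENSG00000173039; chromosome 11, 65653596 to 65663094, minus strand, in GENCODE 29), had 2071 reads in SIRT7-KO, 1983 in USP39-KO and 2612 in control, or 126.9, 120.5 and 134.4 CPM. The log2 ratio was -0.08 (interval -0.17 to 0.00) for SIRT7-KO over control and -0.16 (-0.24 to -0.07) for USP39-KO over control. The knockout libraries were thus close to each other, with a direct log2 ratio of 0.07 (-0.01 to 0.16) for SIRT7-KO over USP39-KO. REL, the c-Rel subunit best known from lymphocytes (chromosome 2, 60881521 to 60931610, plus strand), was the least abundant per length, at 1.72 FPKM in SIRT7-KO, 1.29 FPKM in USP39-KO and 1.74 FPKM in control. Its 313, 242 and 380 reads gave log2 ratios of -0.03 (-0.25 to 0.19) for SIRT7-KO over control and -0.41 (-0.65 to -0.18) for USP39-KO over control. REL was the 1 member whose direct interval lay above 0, at 0.38 (0.14 to 0.63) for SIRT7-KO over USP39-KO.

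NFKB1, which encodes p105 and its product p50 (chromosome 4, 102501329 to 102617302, plus strand), lay on opposite sides of control in the knockout libraries. It had 1043 reads in SIRT7-KO, 1577 in USP39-KO and 1617 in control, or 63.9, 95.8 and 83.2 CPM. The log2 ratio was -0.38 (-0.49 to -0.27) for SIRT7-KO over control and 0.20 (0.10 to 0.30) for USP39-KO over control. NFKB1 was therefore lowest in SIRT7-KO and highest in USP39-KO, with a direct log2 ratio of -0.58 (-0.70 to -0.47).

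The inhibitor NFKBIA encodes IkB-alpha, the fast feedback inhibitor that NF-kB itself induces (ENSG00000100906; chromosome 14, 35401511 to 35404749, minus strand). It had 1032 reads in SIRT7-KO, 1241 in USP39-KO and 1385 in control, or 63.2, 75.4 and 71.3 CPM. Its log2 ratio was -0.17 (-0.29 to -0.06) for SIRT7-KO over control and 0.08 (-0.03 to 0.19) for USP39-KO over control. The lowest and the highest library thus differed by little, with -0.25 (-0.37 to -0.13) for SIRT7-KO over USP39-KO. NFKBIE encodes IkB-epsilon, a slower inhibitor (chromosome 6, 44258166 to 44265788, minus strand), and was at 5.16 FPKM in SIRT7-KO, 4.96 FPKM in USP39-KO and 7.45 FPKM in control. Its log2 ratio was -0.54 (-0.80 to -0.30) for SIRT7-KO over control and -0.57 (-0.82 to -0.32) for USP39-KO over control, on 213, 211 and 370 reads. The knockout libraries were close to each other in NFKBIE, with a direct log2 ratio of 0.03 and an interval of -0.26 to 0.31.

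The non-canonical arm held the largest difference. RELB, the partner of p52 (ENSG00000104856; chromosome 19, 45001430 to 45038198, plus strand), had 110 reads in SIRT7-KO, 427 in USP39-KO and 587 in control, or 6.74, 25.9 and 30.2 CPM. It was 4.47-fold lower in SIRT7-KO than in control (3.65 to 5.55; log2 ratio -2.16, -2.47 to -1.87) and 3.84-fold lower in SIRT7-KO than in USP39-KO (3.11 to 4.79). In USP39-KO it was close to control, with a log2 ratio of -0.22 (-0.40 to -0.04). NFKB2, the gene of p100 and p52 (ENSG00000077150; chromosome 10, 102394110 to 102402529, plus strand), had 2079 reads in SIRT7-KO, 2718 in USP39-KO and 3662 in control, or 127.4, 165.1 and 188.5 CPM. It followed the same order over the 3 libraries with smaller steps, at log2 ratios of -0.57 (-0.64 to -0.49) for SIRT7-KO over control and -0.19 (-0.26 to -0.12) for USP39-KO over control. Less RNA per cell and fewer cells that express a gene cannot be told apart in such bulk libraries.

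The feedback genes went apart in USP39-KO. TNFAIP3 encodes A20, a ubiquitin-editing enzyme that shuts off signalling upstream of IKK (ENSG00000118503; chromosome 6, 137867188 to 137883312, plus strand). It had 1620 reads in SIRT7-KO, 3342 in USP39-KO and 2778 in control, or 99.3, 203.1 and 143.0 CPM. In USP39-KO it stood highest of the 9 against control, at 1.42 times control (log2 ratio 0.51, 0.43 to 0.58), and was at 0.694 times control in SIRT7-KO (log2 ratio -0.53, -0.62 to -0.44). BIRC3 encodes cIAP2, a ubiquitin ligase that protects from cell death and, with TRAF2 and TRAF3, keeps NIK low (ENSG00000023445; chromosome 11, 102317450 to 102339403, plus strand). BIRC3 had 392 reads in SIRT7-KO, 730 in USP39-KO and 1194 in control, or 24.0, 44.4 and 61.5 CPM. It was 2.56-fold lower in SIRT7-KO than in control (2.28 to 2.88; log2 ratio -1.35) and below control in USP39-KO too, at 0.722 times (log2 ratio -0.47, -0.61 to -0.34), short of the 2-fold rule.

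**Figure D2:**
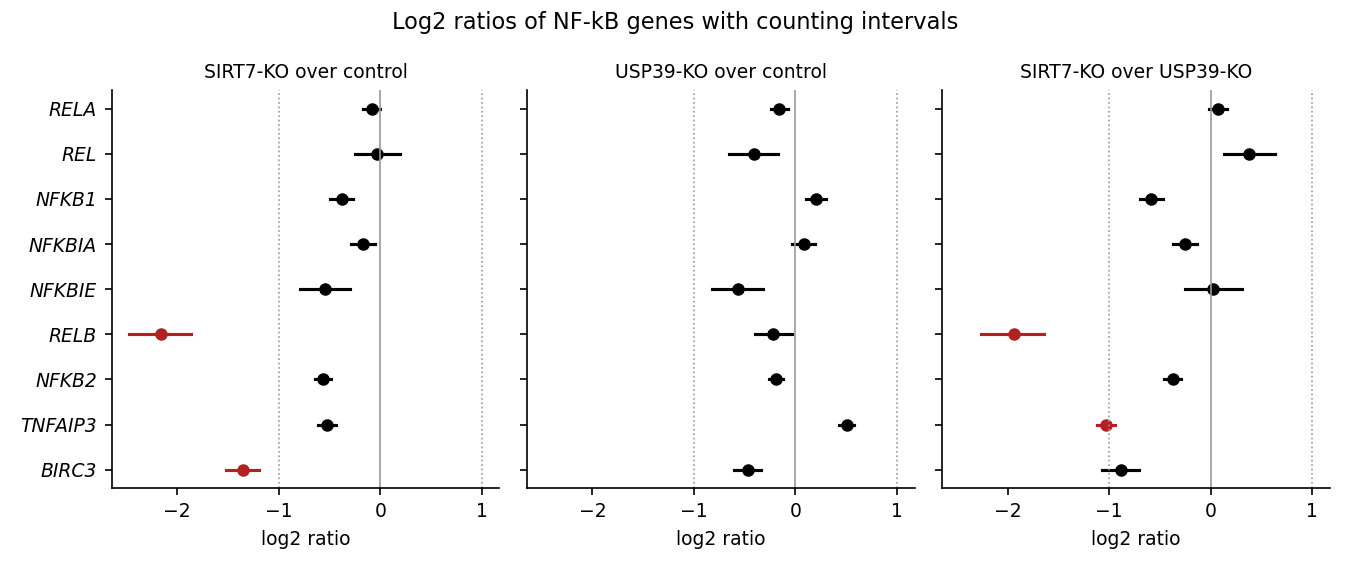
Log2 ratios of the 9 genes in the 3 pairs of libraries, with exact 95% counting intervals as lines; dotted lines mark a 2-fold difference and red marks genes called by the rule. RELB and BIRC3 were called in SIRT7-KO over control, no gene in USP39-KO over control, and RELB and TNFAIP3 in SIRT7-KO over USP39-KO.

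The knockout libraries were also set against each other directly. RELB and TNFAIP3 were lower by the rule in SIRT7-KO than in USP39-KO, 2 of 9, where 3.51% of all genes were called lower, and none was higher, where 5.03% were. TNFAIP3 was 2.05-fold lower (1.93 to 2.17), so its interval crossed the 2-fold line, and BIRC3 lay just outside the rule at 1.85-fold lower (1.63 to 2.09). The interval was wholly below 0 for 6 of the 9 genes, against 29.8% of all genes, and wholly above 0 for REL, against 29.2% of all genes. The median of the 9 log2 ratios was -0.37.

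With the fold lowered to 1.5, BIRC3 joined RELB and TNFAIP3 as lower in SIRT7-KO than in USP39-KO, 3 of 9, where 7.91% of all genes were lower and 10.3% higher. Against control the calls of the members stayed at RELB and BIRC3 in SIRT7-KO, where 7.83% of all genes were lower and 7.21% higher, and at 0 in USP39-KO, where 6.40% were lower and 3.19% higher. NFKB2, at 0.676 times control in SIRT7-KO, was just outside this wider rule. So was NFKBIE in both knockouts, at 0.686 times control in SIRT7-KO and 0.674 times in USP39-KO. In the direct comparison NFKB1 was just outside it too, at 1.499-fold lower in SIRT7-KO than in USP39-KO.

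Levels of different genes were compared per length, on the deposited FPKM scale (counts scaled to gene length in kilobases and to the library total). The orders rest on the listed lengths, which may differ from those of the transcripts the cells made. NFKB2 was the most abundant of the 9 in SIRT7-KO and in control, at 28.7 and 42.1 FPKM, and TNFAIP3 in USP39-KO, at 40.0 FPKM. REL was last in every library. In control the order was NFKB2, NFKBIA (30.04 FPKM), TNFAIP3 (28.5), RELA (24.6), NFKB1 (13.3), RELB (9.97), BIRC3 (8.21), NFKBIE (7.45) and REL (1.74). NFKBIA and TNFAIP3 did not differ beyond counting error there, nor did BIRC3 and NFKBIE. In SIRT7-KO RELB stood next to last, at 2.25 FPKM, below BIRC3 at 3.24 FPKM and NFKBIE at 5.16 FPKM, and the top pair NFKB2 and NFKBIA (26.9 FPKM) did not differ beyond counting error. In USP39-KO RELB stood sixth, at 8.47 FPKM, as in control. Among all 12726 genes, the FPKM of RELB exceeded that of 29.4% of genes in SIRT7-KO, 58.8% in USP39-KO and 63.1% in control.

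The 5 subunits together summed to 66.5 FPKM in SIRT7-KO, 83.2 FPKM in USP39-KO and 91.7 FPKM in control. RELB made up 3.38% of that sum in SIRT7-KO, 10.2% in USP39-KO and 10.9% in control. The share of RELA was 35.3% in SIRT7-KO, 26.2% in USP39-KO and 26.8% in control, while that of NFKB2 ranged only from 43.2% to 45.9%. On the listed gene lengths, the non-canonical subunit NFKB2 was therefore the most abundant subunit transcript in all 3 libraries, ahead of RELA. In SIRT7-KO the reads of NFKB2 and RELA were nearly equal, at 2079 and 2071. Their order there rests on listed lengths of 4479 and 5464 bases. Which transcripts the cells made was not measured, so this order and the shares are uncertain. Transcript levels do not show how much p100 was processed to p52, nor which dimers formed.

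**Figure D3:**
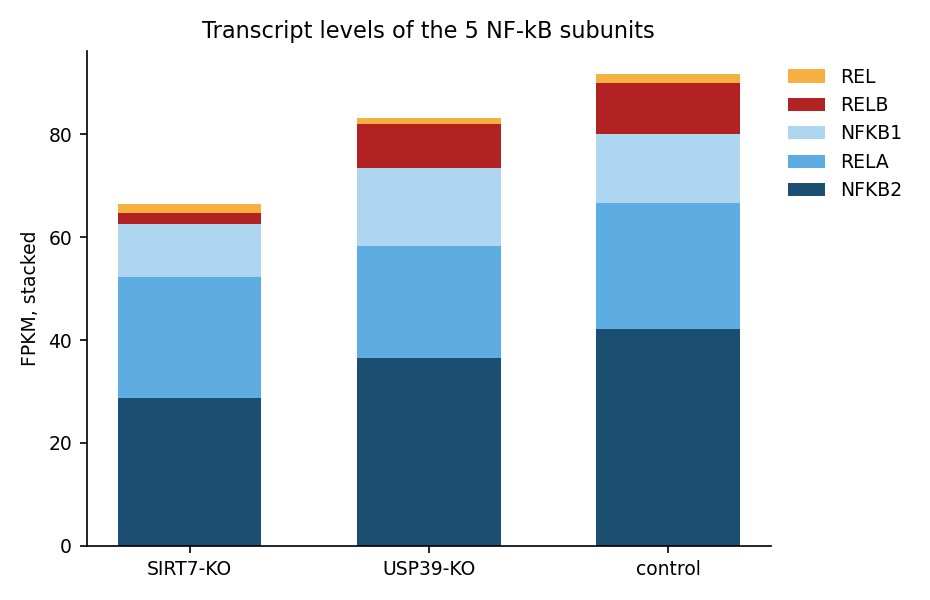
Stacked FPKM of the 5 NF-kB subunits in the SIRT7-KO, USP39-KO and control libraries, 1 library each. The bars reach 66.5, 83.2 and 91.7 FPKM, and the RELB segment (red) is 2.25, 8.47 and 9.97 FPKM.

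Ratios within a library do not depend on how libraries are scaled to each other. RELB stood at 0.0782 of its partner NFKB2 in FPKM in SIRT7-KO, 0.232 in USP39-KO and 0.237 in control. The ratio in SIRT7-KO was 0.330 times that in control (exact conditional interval 0.265 to 0.408), and the ratio in USP39-KO 0.980 times (0.855 to 1.12). RELB was thus lower relative to its partner in SIRT7-KO, while USP39-KO and control did not differ in this ratio beyond counting error. Against RELA, RELB was at 0.0957 in SIRT7-KO, 0.388 in USP39-KO and 0.405 in control. In the canonical pair, NFKB1 to RELA was 0.440 in SIRT7-KO, 0.694 in USP39-KO and 0.541 in control, so the knockouts were on opposite sides of control, at 0.814 times (0.737 to 0.897) and 1.28 times (1.17 to 1.41). The ratio of the inhibitor NFKBIA to RELA was 1.15 in SIRT7-KO, 1.44 in USP39-KO and 1.22 in control, and SIRT7-KO was at 0.940 times control with an interval that includes no difference (0.850 to 1.04). The feedback gene TNFAIP3 relative to RELA was 0.851 in SIRT7-KO, 1.83 in USP39-KO and 1.16 in control. BIRC3 relative to its close relative BIRC2 was 0.192 in SIRT7-KO, 0.275 in USP39-KO and 0.491 in control, or 0.390 times (0.339 to 0.448) and 0.560 times (0.498 to 0.630) the control ratio.

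BIRC2 (cIAP1) is the neighbour of BIRC3 on chromosome 11 and had 1234 reads in SIRT7-KO, 1602 in USP39-KO and 1467 in control. Its log2 ratio was 0.00 (-0.11 to 0.11) for SIRT7-KO over control, so the low BIRC3 level there was not shared by its relative next door. In USP39-KO the log2 ratio of BIRC2 was 0.37 (0.26 to 0.47). The 5 nearest protein-coding genes of the table on each side of RELB and BIRC3, the members called in SIRT7-KO over control, were read in the same way. Around RELB, 7 of 10 neighbours passed the count filter and none was called in any pair, with log2 ratios for SIRT7-KO over control from -0.43 in APOC1, on 8 reads in SIRT7-KO, to 0.52 in MARK4. Around BIRC3, 4 of 10 passed and none was called, with log2 ratios from 0.00 in BIRC2 to 0.40 in CEP126, and with 0.33 in YAP1, a coactivator of the Hippo pathway. The differences of RELB and BIRC3 were thus not shared by the measured genes around them. No gene that GENCODE 29 places over a member had a row in the table, but RELA and TNFAIP3 have a non-coding gene on the opposite strand, and without a stated strand setting its reads cannot be told apart from theirs.

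**Figure D4:**
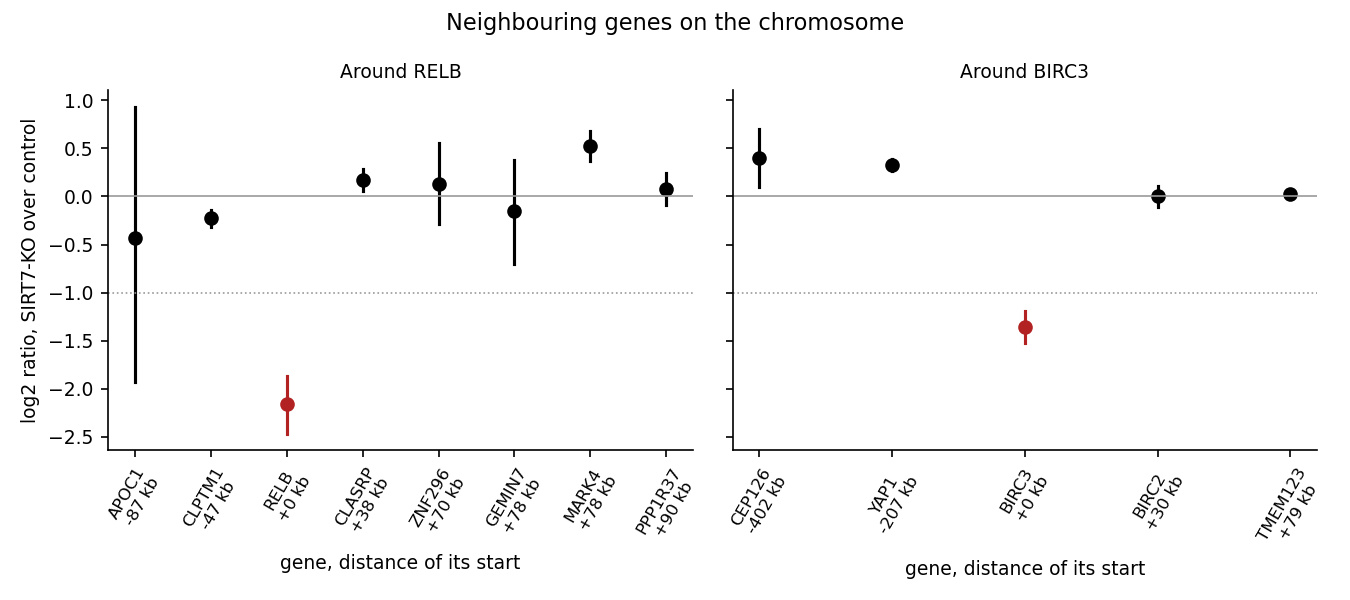
Log2 ratio of SIRT7-KO over control for RELB and BIRC3 (red) and their measured neighbours (black), in chromosome order, with exact 95% counting intervals; labels give the distance between gene starts in kilobases, and the dotted line marks a 2-fold lower level. RELB at -2.16 and BIRC3 at -1.35 stand below all their measured neighbours.

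The genes whose pair of log2 ratios against control was nearest to that of RELB and of BIRC3 were named by a fixed rule, among genes that reached 100 counts in any library. Over these 3 libraries RELB was nearest to TMEM56 (distance 0.07 on the log2 scale), MMP24 (0.13) and FHL1 (0.18). FHL1, a LIM-domain protein, had 317 reads in SIRT7-KO, 1238 in USP39-KO and 1552 in control. BIRC3 was nearest to SDR16C5 (0.07), the ion channel PIEZO2 (0.08) and PLEKHA4 (0.09). With 3 libraries and a shared control such likeness is a description of levels only.

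Other genes of the pathway were read from 9 lists of 139 genes in all, of which 101 passed the count filter. Their median log2 ratio was -0.08 for SIRT7-KO over control and -0.03 for USP39-KO over control. By the rule 3 of the 101 lay higher than control in SIRT7-KO and 5 lay lower, and for USP39-KO the counts were 2 and 7. Of all genes, 3.02% were called higher and 4.05% lower in SIRT7-KO, and 1.49% higher and 3.37% lower in USP39-KO. Between the knockouts, 4 were higher and 3 lower in SIRT7-KO than in USP39-KO, where 5.03% and 3.51% of all genes were. Against control all of the called pathway genes were receptors, ligands and targets, many with few reads. No gene of the signalling core between receptors and subunits was called against control: 0 of 7 in the IKK complex and related kinases, 0 of 3 in the TRAF2, TRAF3 and BIRC2 group that degrades NIK, 0 of 23 adaptors and upstream kinases, 0 of 17 negative regulators and 0 of 4 other IkB family genes. With so few genes per list and the shares of all genes given above, such counts do not set the core apart.

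Among the kinases, CHUK (IKK-alpha), which NIK activates, was at 9.29 FPKM in SIRT7-KO, 9.43 FPKM in USP39-KO and 9.09 FPKM in control. IKBKB (IKK-beta), the canonical IkB kinase, had log2 ratios of -0.32 for SIRT7-KO over control and 0.02 for USP39-KO over control. TBK1, the most abundant gene of that list, had 0.11 and 0.14. IKBKE, a relative of TBK1, was the 1 kinase called in any pair, with 8 reads in SIRT7-KO and 23 in USP39-KO (log2 ratio -1.46, -2.88 to -0.30). IKBKG had 15 reads in SIRT7-KO, 6 in USP39-KO and 16 in control, and has a close pseudogene copy, so its level is uncertain. TRAF3, which holds NIK for destruction, had a log2 ratio of -0.42 for SIRT7-KO over control and TRAF2, the most abundant of its group, -0.20. In control the most abundant genes per length of 3 other lists were NFKBIB (IkB-beta; -0.30 for SIRT7-KO over control), the linear ubiquitin ligase subunit RBCK1 (-0.69) and the ubiquitin-binding adaptor TAX1BP1 (0.05).

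Among receptors, 1 of 16 was higher and 3 were lower by the rule in SIRT7-KO, where 3.02% and 4.05% of all genes were. USP39-KO had 2 higher and 4 lower receptors, where 1.49% and 3.37% of all genes were. Several of these calls rest on few reads. The interleukin-1 receptor IL1R1 had 242 reads in SIRT7-KO, 82 in USP39-KO and 59 in control, a log2 ratio of 2.28 (1.87 to 2.72) for SIRT7-KO over control. Its coreceptor IL1RAP had 427, 823 and 342 reads in the same libraries, and was higher by the rule in USP39-KO, at 2.84-fold its control level (log2 interval 1.32 to 1.69). The 2 chains of the receptor were thus each highest in a different knockout library. TLR4, the lipopolysaccharide receptor, had 13 reads in SIRT7-KO, 59 in USP39-KO and 79 in control, 4.97-fold lower in SIRT7-KO than in control (2.82 to 10.01). TLR3, a sensor of double-stranded RNA, had 2 reads in SIRT7-KO, 35 in USP39-KO and 11 in control, and was lower by the rule in SIRT7-KO and higher in USP39-KO. EDAR, the ectodysplasin receptor, had 4 reads in SIRT7-KO, 2 in USP39-KO and 31 in control, lower by the rule in both. TNFRSF1B had 38 reads in SIRT7-KO, 4 in USP39-KO and 29 in control, and TNFRSF13C, the BAFF receptor, 16, 7 and 36, both lower by the rule in USP39-KO. TLR1 was the fourth receptor lower in USP39-KO, on 7 reads in SIRT7-KO, 1 in USP39-KO and 10 in control. The receptors that feed the non-canonical arm in many cells, TNFRSF12A and LTBR, were abundant, at 75.1 and 31.1 FPKM in SIRT7-KO, 61.1 and 27.6 FPKM in USP39-KO, and 57.2 and 27.0 FPKM in control, and neither was called.

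Ligands were scarce, and 3 of 13 passed the filter. TNFSF13B (BAFF) was the most abundant, with 35 reads in SIRT7-KO, 16 in USP39-KO and 32 in control. EDA, the ligand of EDAR, had 17, 9 and 28 reads in the same libraries and was lower by the rule in USP39-KO. TNFSF15 had 0 reads in SIRT7-KO, 1 in USP39-KO and 13 in control, at least 2.56-fold lower in SIRT7-KO than in control by its counting interval. TNF, LTA and LTB, among the main inducers of NF-kB, are listed at 0 reads in all 3 libraries. They lie in the major histocompatibility complex, as do 4 other genes of the lists, all at 0. Between MOG and KIFC1 on chromosome 6, 121 of 153 protein-coding genes of the table (79.1%) had no read anywhere, against 22.6% of all other protein-coding genes. A 0 for these genes is therefore no sign that they were silent.

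Of the 44 target genes outside the members, 28 passed the filter, with a median log2 ratio of -0.13 for SIRT7-KO over control and -0.02 for USP39-KO over control. In SIRT7-KO 2 of the 28 were higher by the rule, CXCL3 among them, where 3.02% of all genes were. IL6 was the 1 called lower there, where 4.05% of all genes were. In USP39-KO CXCL8 was the 1 called lower, where 3.37% of all genes were, and 0 were higher, where 1.49% were. IL6, the acute-phase cytokine, had 66 reads in SIRT7-KO, 75 in USP39-KO and 163 in control, or log2 ratios of -1.05 (-1.49 to -0.63) and -0.88 (-1.29 to -0.48). CXCL8, a neutrophil chemokine, had 6, 3 and 15 reads in the same libraries and CXCL3 17, 8 and 6. SDC4, the most abundant target per length in control, had -0.20 for SIRT7-KO over control and -0.45 for USP39-KO over control. Of the 28 targets, 18 were below control in SIRT7-KO and 10 above it. All 9 members were below control there, as were 51.2% of all genes. The 5 chemokine and adhesion genes tied to RelB and p52, among them CXCL12, CXCL13 and CCL21, had under 10 reads in every library and gave no ratio.

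**Figure D5:**
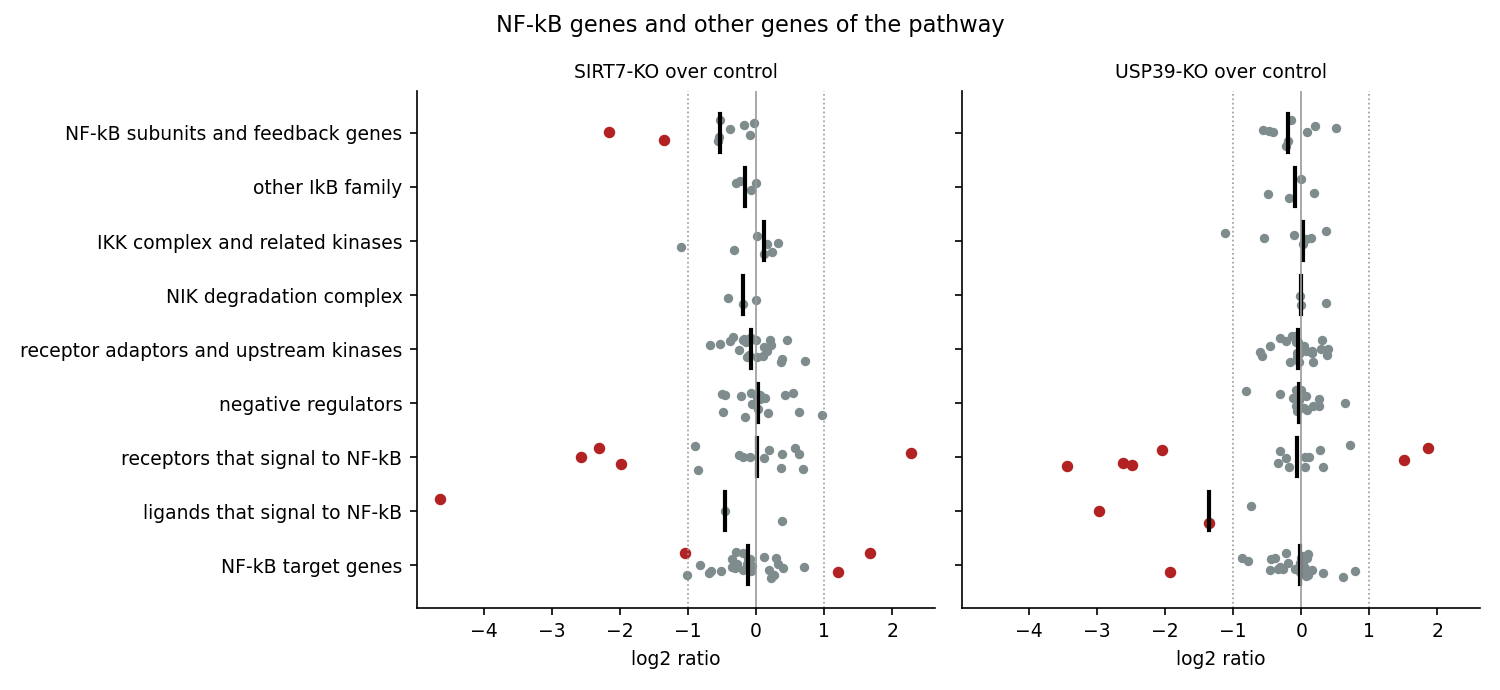
Log2 ratios of the 9 NF-kB genes (top row) and of the other genes of the pathway by list, 1 point per gene, for SIRT7-KO over control (left) and USP39-KO over control (right). Black bars are medians, red marks genes called by the 2-fold rule and dotted lines a 2-fold difference; the leftmost point is TNFSF15, with 0 reads in SIRT7-KO, whose plotted ratio depends on the prior count.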

How the data were processed

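Per the labels' protocols, total RNA was taken with Trizol and sequenced from TruSeq libraries. The authors deposited 1 table with each gene's length and, per library, its reads and FPKM. The deposited read counts are unnormalized whole numbers, per the file headers and values. The FPKM deposited by the authors equal count over listed length and library total for every gene with reads, within a relative tolerance of 1e-06. Aligner, counter, strand setting, build and annotation: not given in the sources used here.

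Symbols came from GENCODE 29, which held 19649 of 22827 identifiers, and from a table of gene names. TMM factors (edgeR 4.0.16) were 1.0104, 0.9896 and 1.0000 for SIRT7-KO, USP39-KO and control. Log2 ratios used a prior of 0.5 counts, and their 95% intervals are exact conditional binomial (Clopper-Pearson, scipy 1.17.1). Intervals and floors cover counting error only, since the reads carry no molecular identifiers and are not independent molecules. A count of 0 allows 3 counts, or 0.184, 0.182 and 0.154 CPM. No count test was run, because single libraries give no estimate of dispersion. Steps were checked on simulated counts. DESeq2 1.42.0 size factors were 1 of the alternatives.

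The genes and lists were chosen with earlier results of these data known. All members are named. Of other lists, the genes called in any pair with at least 20 counts in 1 library of that pair are named, with the most abundant gene per length of each list in control; 1 target gene is not reported here. Other names, such as CXCL8, CXCL3, TNFSF15, TLR1, CHUK, IKBKB, IKBKG, TRAF3, LTBR, TNF, CXCL12, CXCL13 and MARK4, were chosen after their values were seen.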

Additional observations from a re-analysis of the deposited data

How the results depend on the processing

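Of the 7 other settings, library totals only, DESeq2 size factors and a prior of 2 counts can change a ratio. None of these changed the sign of any of the 27 ratios of the 9 genes. The rest leave every ratio as it is. They were no count filter, a filter of 100 counts, a fold of 1.5, and a fold of 2 without the interval. The calls of RELB and BIRC3 in SIRT7-KO over control and of RELB and TNFAIP3 in SIRT7-KO over USP39-KO were kept in all 7. These calls could be lost only under the settings that change a ratio, since all 9 genes pass both filters and the other rules are looser. A fold of 1.5 added BIRC3 to the direct comparison. TNFAIP3 lay close to the threshold there, at a log2 ratio of -1.03, and came nearest to -1 with library totals only. Counts over the whole table fell with a stricter filter: at 100 counts, 346 genes were past the rule in SIRT7-KO over control (against 899), 174 in USP39-KO over control (against 618) and 502 between the knockouts (against 1087). A fold of 1.5 gave 1914, 1220 and 2322. Of the other pathway genes, 8, 9 and 7 were past the rule in these comparisons, and 3, 1 and 2 with at least 100 counts, 18, 14 and 17 at a fold of 1.5, and 13 between the knockouts with no condition on the interval. No paired analysis was possible because each group has 1 library, and no library could be left out. Depth limits what can be said of ligands and other genes with few reads, not of the 9 genes, which had at least 110 reads in every library.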
